A study of Mus musculus with 12 samples.

Results

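The response of IMG cells to the amyloid beta preparation labelled fAb was followed in 8 of the 12 libraries of the series, 4 from cells given fAb and 4 from cells given a scramble control, with every gene compared between them. Microglia are the macrophages of the brain, and IMG is a mouse microglial line that was immortalised so that it grows in culture. Both groups were wild type, came from the C57Bl6/J background and shared a passage number, and they differed in what was added for 8 h before RNA was taken. A stranded poly(A) kit made the libraries from 2 ug of total RNA. The series' design text attaches the word oligomeric to fAb and fibrillar to the other preparation, oAb, which is the reverse of what the letters would lead one to read, so the preparation keeps its label here. Its dose, and what the scramble control consists of, are not stated in the sources used here. No label states that the libraries of a group came from separate cultures, so the p-values measure the spread between these libraries, which may be technical. The material is a single dividing cell line without neurons or astrocytes around it.

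Amyloid beta aggregates are bound at the microglial surface by scavenger, Fc, Toll-like and TREM receptors. Toll-like receptor signalling frees the transcription factor NF-kB, which switches on genes of cytokines, chemokines and the inhibitors of NF-kB itself, while a second arm through interferon regulatory factors leads to type I interferon. Secreted interferon then acts back on the cells through STAT and IRF factors, which bind a DNA element found near antiviral genes. Macrophages under such stimulation are known to stop dividing, to change their fuel use and to lay down or remove receptors that define their resting state.

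All 15 markers fixed for microglia and macrophages reached a mean of 1 CPM (counts scaled by edgeR's TMM factors to a common library size) in scramble or fAb. In the test described below, 9 of them were lower in fAb and 3 higher. Their summed level was 4950 to 6380 CPM in the scramble libraries and 4060 to 4540 CPM in the fAb libraries. Neuronal markers, with 7 of 10 at 0 in all 8 libraries, summed to 0.972 to 3.6 CPM in scramble and 10.5 to 13.1 CPM in fAb. Oligodendrocyte markers, with 6 of 10 at 0, summed to 129 to 157 CPM in scramble and 79.2 to 87.2 CPM in fAb, the highest of the other cell types. Those of T and NK cells were at 0 in 7 of 9 cases. Fibroblast and mural markers summed to 0.954 to 1.48 CPM in scramble and 6.21 to 6.69 CPM in fAb, and endothelial markers to 9.12 to 12.4 and 23.8 to 26.4 CPM. A mean of 1 CPM in scramble or fAb was reached by 1 of 10 neuronal, 2 of 10 oligodendrocyte, 2 of 8 endothelial and 2 of 8 fibroblast and mural markers. Few members of each list thus carried a signal above that level. The part of these markers in the results was not tested. In RNA from a whole culture, fewer cells with a transcript and less of it per cell cannot be told apart.

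The libraries held 13638721 to 18124419 counts. The first principal component held 84.1% of the variance and separated the groups. Scramble library 3 correlated at 0.943 to 0.964 with the remaining controls, while the fAb libraries correlated at 0.9905 to 0.9945 among themselves, and the biological coefficient of variation was 0.24 among the controls and 0.0793 among the fAb libraries. One further split crosses the groups unevenly. Of the counts shared between Timm23 and its near-identical copy Gm10273, 17.5% to 26.5% lay at Timm23 in the fAb libraries and scramble 1, against 94.6% to 98.3% in scramble 2 to 4. The labels name no batch that goes with this split, and scramble 1 is the only library that separates it from the treatment.

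Of 11074 genes with enough counts to test, 6235 (56.3%) changed at an adjusted p under 0.05 in edgeR's quasi-likelihood test with Benjamini-Hochberg adjustment. Of these, 3051 (27.6%) were higher in fAb and 3184 (28.8%) lower. Upper quartile scaling gave 2273 higher and 4361 lower genes, and the median over all genes moved from -0.04 to -0.23 log2, so a small change is relative to the scaling used. With the Timm23 split as a term, which leaves scramble 1 as the only control of its set, 2020 genes were higher and 1824 lower. Over all 12 libraries, where the oAb libraries fall on both sides of the split (2 on each), the same term gave 2685 higher and 2839 lower. Of the genes named below, those that did not pass with the split on the 8 libraries were Abca1, Cd80, Csf1r, Ddit4, Gpx1, Gpx4, Hsf1, Igf1, Irf8, Lta4h, mt-Rnr1, mt-Rnr2, Pycard, Rpl10, Rrm2, Sil1, Smad7, Sod1, Spr, Stat5b, Tet2, Tnfsf14, Tyrobp and Zfp36l2, and with upper quartile scaling Ebi3, Igf1, mt-Rnr2, Rpl10 and Rrm2. Every gene said below to have risen or fallen passed this test, and log2 fold changes are fAb over scramble with n = 4 libraries a group. For named genes without a counting ratio or bound the SE lies between 0.07 and 0.60.

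The changes were steeper upwards than downwards. Of the genes tested, 217 (1.96%) rose at least 16-fold and 43 (0.388%) fell at least 16-fold. The former took 0.0624% to 0.104% of the counts in the scramble libraries and 4.43% to 4.60% in the fAb libraries. The 337 genes (3.04%) that fell at least 4-fold went from 0.894% to 0.961% of the counts to 0.126% to 0.135%. All genes that rose together held 24.8% to 29.7% of the counts in scramble and 48.0% to 48.8% in fAb. For 6093 genes (55.0%) the libraries of the groups did not overlap. There were 27 tested genes that had no count in any control, and 1 had none in any fAb library.

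**Figure D1:**
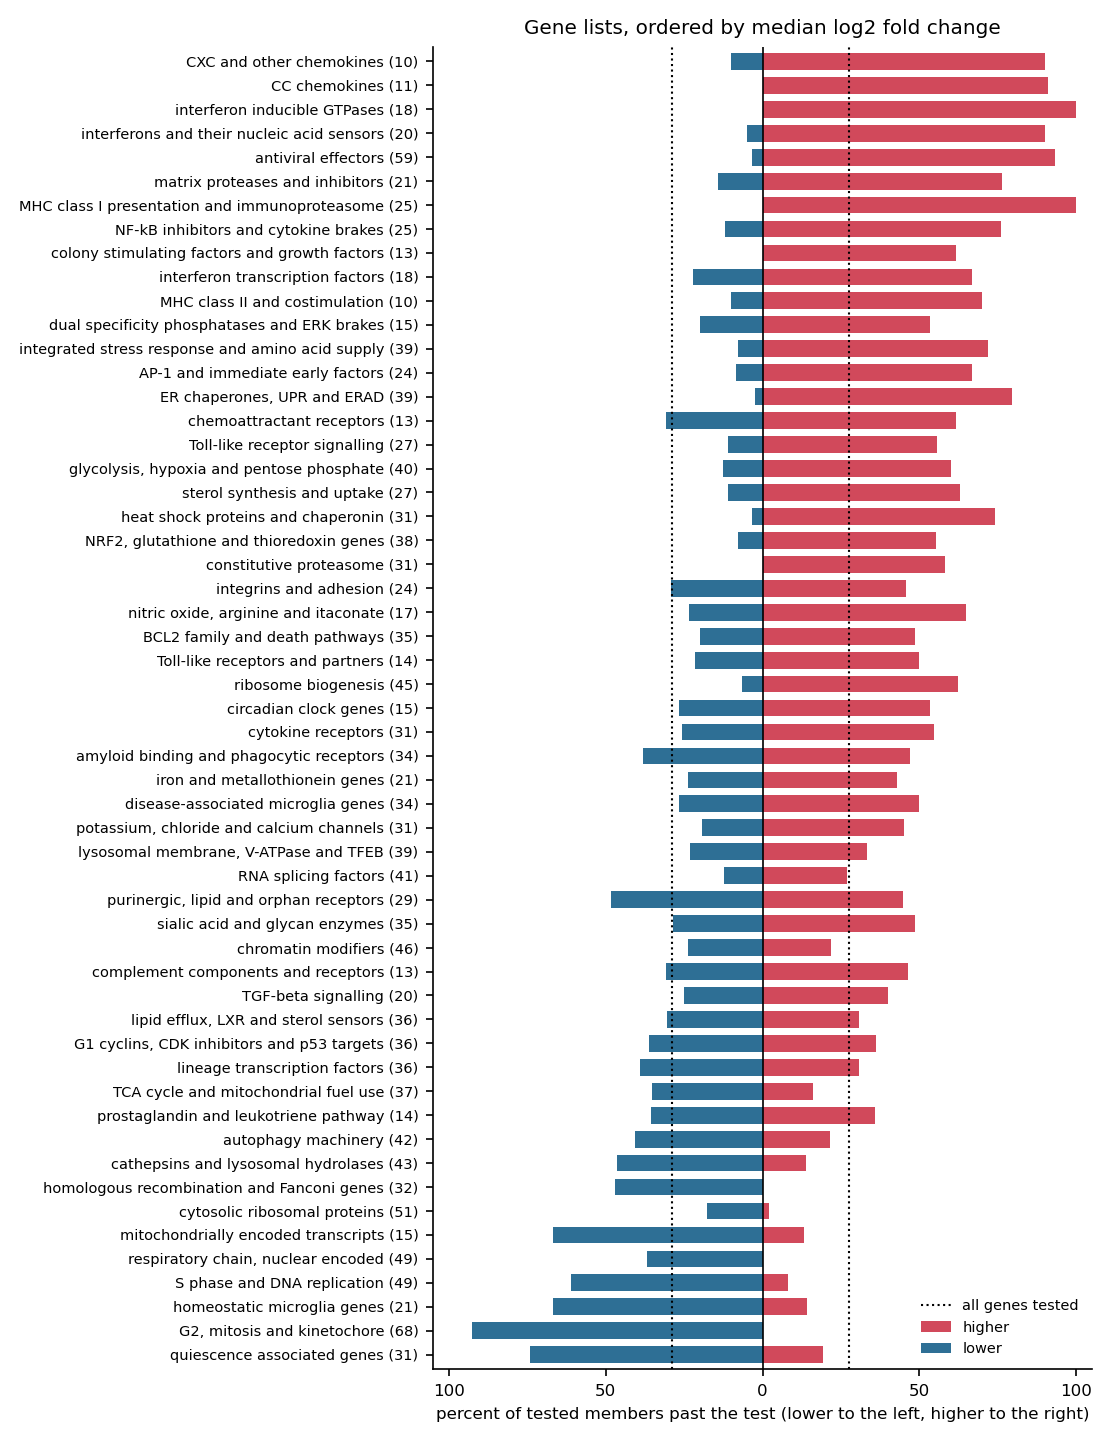
Percent of the tested members of each gene list that were higher (right, red) or lower (left, blue) in fAb at an adjusted p under 0.05, with the number tested in brackets and the lists ordered by their median log2 fold change. Dotted lines mark the same percentages over all 11074 genes tested, 27.6% higher and 28.8% lower. Chemokines, interferon inducible GTPases, interferons with their nucleic acid sensors, and antiviral effectors are at the top. Quiescence associated genes and genes of G2, mitosis and the kinetochore are at the bottom.

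Chemokines rose steeply. Of 20 CC chemokines listed, 11 could be tested and 10 rose, with a median of 6.03 log2, and together they went from 0.0363% to 0.0370% of the counts to 0.752% to 0.784%. Against 27.6% of all genes, these counts describe lists in which a member silent in the controls is tested only because it was high in fAb, and the same holds for the other cytokine lists. Ccl4, which attracts monocytes and T cells, stood at 5.19, 6.41, 6.05 and 5.85 CPM in scramble libraries 1 to 4 and at 388, 389.5, 378 and 371 CPM in fAb libraries 1 to 4. Each fAb value lay far above every control and the 4 were nearly equal, giving a log2 fold change of 6.02 ± 0.10 (adjusted p = 4.47e-10, edgeR). Ccl22, which attracts regulatory T cells through CCR4, went from 0, 0.123, 0.224 and 0.0636 CPM to 54.6, 55.9, 57.1 and 64.3 CPM (9.16 ± 0.30), that is, from background to a clear signal in every fAb library. The ligands of monocytes Ccl2 (22.3 to 1459 CPM on average, 6.03 log2) and Ccl7 (0.816 to 389.9 CPM on average, 8.90 log2) rose as well, as did Ccl3 (47.2 to 1897 CPM on average, 5.33 log2) and Ccl9 (254 to 3017 CPM on average, 3.57 log2). Ccl17 had no count in any control and was at least 23.2-fold higher, taking 3 counts for all controls together as the floor. Ccl25, a gut chemokine, was the exception, at -0.10 log2 (adjusted p = 0.696, edgeR).

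Among 15 CXC and other chemokines, 10 were tested, 9 rose and 1 fell, with a median of 6.33 log2, or 5.41 with the members silent in the controls at their lower bound. Both branches of the family moved, the neutrophil attractants and the interferon induced T-cell attractants. Cxcl2, of the former kind, read 0.530, 0.246, 0.448 and 0.445 CPM in the controls and 249.8, 231, 203 and 203 CPM in fAb, with no overlap and a log2 fold change of 9.02 ± 0.19. Cxcl10, of the latter kind, read 2.28, 2.83, 2.92 and 2.80 CPM and 930.3, 950.3, 1059 and 1008 CPM, a change of 8.51 ± 0.13 (adjusted p = 2.77e-10, edgeR). Its neighbours Cxcl9 and Cxcl11 had no count in the controls and were at least 102-fold and 174-fold higher. Cx3cl1, the ligand of the microglial receptor CX3CR1, rose by 4.15, whereas Cxcl14 fell, from 2.99 to 0.390 CPM on average, a change of -2.90.

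Tumour necrosis factor, the prototype product of NF-kB, was already expressed in the controls. Tnf read 14.1, 16, 12.2 and 10.2 CPM there and 635, 628, 635 and 642 CPM in fAb, a rise that every treated library shows and no control approaches (log2 5.60 ± 0.15, adjusted p = 6.29e-09, edgeR). Of 16 listed ligands of its superfamily 8 were tested: 4 rose, among them Tnfsf9 (0.85) and the death ligand Tnfsf10, at 125 times the control level with a 95% counting interval of 42.6 to 611, and 2 fell, Tnfsf13 (-1.94) and Tnfsf14 (-0.88). Tnfsf14 had an adjusted p of 0.0551 with the replicate block in edgeR and adjusted p = 0.0573 to 0.0741 in edgeR without fAb 1, 2 or 3 or without scramble 2 or 3, which leaves 1 fall, as does the Timm23 split as a term. Tnfsf13, also called APRIL, shares 60.0% of its exons with a same-strand gene, so its reads are uncertain.

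Interleukin genes rose throughout the members tested. Il6 was at 3760 times its control level (95% counting interval 675 to 149000, from 1 control count), and Il27, which limits T-cell responses, at 520 times (178 to 2520). Il10, the anti-inflammatory cytokine, rose from 0.0715 to 0.956 CPM on average, and Il18, which is stored as a precursor until caspase-1 cuts it, from 7.34 to 37.8 CPM on average. The interleukin 1 receptor antagonist Il1rn, which blocks the receptor that interleukin 1 uses, was among the more abundant products: 13.7, 12, 15.8 and 14.8 CPM in the controls against 1375, 1465, 1494 and 1427 CPM in fAb, a rise of 6.68 ± 0.13 in which no library of a group reached the other. Of the interleukin 1 and 18 list 7 of 8 members were tested and all 7 rose, and of the interleukin 6, 10 and 12 list 8 of 13 were tested and rose. Ebi3, a subunit shared by interleukins 27 and 35, was the weakest of these at 0.71, its groups overlapped, and it had adjusted p = 0.0501 to 0.0627 in edgeR without fAb 2 or 4 or without scramble 2.

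Growth factors rose or did not pass the test. Csf1, which keeps microglia alive through CSF1R, went from 7.63, 10.4, 9.94 and 10.9 CPM to 125, 127, 121 and 135 CPM (3.71 ± 0.13). Of 21 listed colony stimulating and growth factors 13 were tested, 8 rose and none fell (2 fell without scramble 1, 1 with upper quartile scaling), including Pdgfb (1.98), Hbegf (2.31), Vegfa (0.88) and Igf1 (0.50). The vasoconstrictor Edn1 was at 451 times its control level (124 to 3730).

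**Figure D2:**
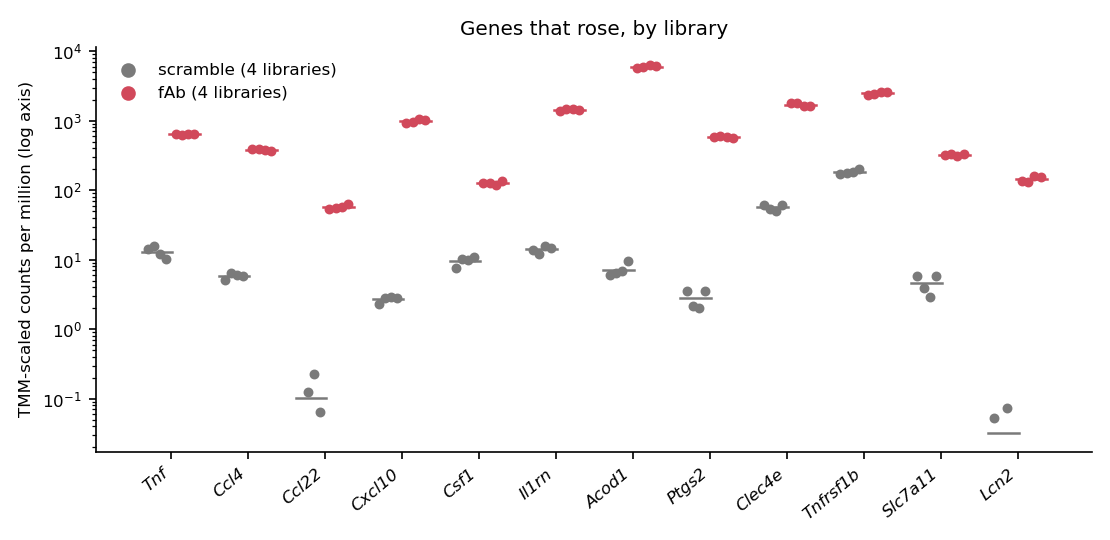
TMM-scaled CPM in each of the 8 libraries (points, log axis) with the group mean (bar) for 12 genes that rose. Scramble libraries are grey and fAb libraries red, and values of 0 (1 Ccl22 and 2 Lcn2 controls) cannot be drawn on this axis. The fAb points lie above all scramble points for each gene, for Tnf between 628 to 642 CPM against 10.2 to 16 CPM.

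On the receiving side the changes ran both ways. Of 31 cytokine receptors tested 17 rose and 8 fell, with a median of 0.38 log2. Tnfrsf1b, the tumour necrosis factor receptor found mainly on immune cells, read 173, 175, 185 and 204 CPM in scramble and 2350, 2389, 2603 and 2625 CPM in fAb (3.76 ± 0.11). Cd40, the co-stimulatory receptor, rose by 6.90 and Fas, a death receptor, by 4.77. The chains of the interferon gamma receptor moved apart: Ifngr2 went from 87.5, 93.8, 107 and 93.8 CPM to 178, 184, 192 and 195 CPM (0.97 ± 0.09) and Ifngr1, the ligand-binding chain, from 46.2, 47.0, 50.2 and 47.3 CPM to 19.97, 21.3, 19.7 and 20.9 CPM (-1.22 ± 0.08). Il6ra (-1.12), Il17ra (-1.30) and both TGF-beta receptor chains, Tgfbr1 (-1.05) and Tgfbr2 (-0.96), fell. Csf1r, the receptor of Csf1, fell by 0.37 log2, with adjusted p = 0.0507 to 0.0662 in edgeR without fAb 1 or 2 or without scramble 4.

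Receptors for chemoattractants showed the same split. Of 13 tested 8 rose and 4 fell. The formyl peptide receptors, which detect bacterial and mitochondrial peptides, went from 1 and 2 counts over the 4 controls to 278 times (95% counting interval 49.5 to 11000) for Fpr1 and 233 times (64.1 to 1930) for Fpr2. The complement receptors diverged, with C5ar1 at 1.25 and C3ar1 at 0.70 but C5ar2, which does not signal through G proteins, at -3.02, from 9.86 to 1.21 CPM on average. Ccr2, the receptor of Ccl2, fell from 5.19, 4.62, 2.92 and 4.01 CPM to 0.733, 1.01, 0.546 and 0.507 CPM (-2.57 ± 0.27).

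Toll-like receptors did not move as a block, with 7 of 14 higher and 3 lower (5 lower with upper quartile scaling). Tlr3, which senses double-stranded RNA in endosomes, read 11.9, 10.9, 5.90 and 11.7 CPM in scramble and 82.5, 83.0, 87.9 and 81.7 CPM in fAb, without overlap (3.05 ± 0.20). Tlr4, the endotoxin receptor, read 87.5, 72.3, 34.8 and 87.4 CPM and 35.1, 35, 34.9 and 29.4 CPM (-1.07 ± 0.26, adjusted p = 0.00638, edgeR), and here scramble 3 alone lay within the fAb range. Its co-receptor Cd14 rose by 1.70 and Tlr2 by 1.37. Tlr5, the flagellin receptor, fell from 1.59 to 0.124 CPM on average.

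Inside the cell the adaptor Traf1 rose most of the signalling list. Of 27 genes of Toll-like receptor signalling 15 rose and 3 fell (20 and 5 without scramble 3, and 5 fell with upper quartile scaling). Traf1, which serves tumour necrosis factor receptors, went from 0.424, 0.308, 0.897 and 0.318 CPM to 242, 224, 251 and 252 CPM (8.99 ± 0.23), and the peptidoglycan sensors Nod2 (3.63) and Nod1 (3.41) and the kinases Ikbke (2.52) and Irak2 (2.03) rose too. The 3 that fell were Irak1 (-0.64), Irak4 (-0.66) and Tab1 (-0.98), kinases or kinase partners next to the receptors. Among the NF-kB subunits the precursors Nfkb2 (1.79) and Nfkb1 (1.30) and Relb (0.90) rose, and Rela (0.12, or 0.28 without scramble 3, where its adjusted p was 0.0479) and Rel (0.39) did not pass. Relb, whose groups overlapped, had adjusted p = 0.0503 to 0.0532 in edgeR without fAb 1 or without scramble 2 or 4.

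Most genes that restrain NF-kB and cytokine signals rose. Of 25 NF-kB inhibitors and cytokine brakes tested 19 rose and 3 fell (1 with the Timm23 split as a term), with a median of 1.80 log2. Nfkbia, which encodes the inhibitor that holds NF-kB in the cytoplasm, read 27.1, 43, 44.5 and 36.8 CPM in the controls and 213, 194, 202 and 206 CPM in fAb, a clear separation (2.43 ± 0.15). The ubiquitin-editing enzyme gene Tnfaip3 (4.34), the STAT inhibitor Socs3 (4.31), the decoy kinase Irak3 (2.84) and the mRNA-decay factors Zc3h12a (3.02) and Zfp36 (1.74) rose. Zfp36l2, a relative of Zfp36, fell by 0.51 log2, and Zfp36l1 was at -1.96, though 55.9% of its exons overlap a gene on the other strand and the strand setting of the counting is not stated. Of 15 dual specificity phosphatases and ERK inhibitors 8 rose and 3 fell. Dusp1, a nuclear phosphatase of stress kinases, went from 3.39, 3.14, 3.74 and 3.12 CPM to 32.1, 29.5, 31.2 and 29.9 CPM (3.19 ± 0.11), and Dusp6, which removes phosphate from ERK in the cytoplasm, from 25.5, 26.4, 18.7 and 26.2 CPM to 12.8, 10.02, 11.5 and 11 CPM (-1.09 ± 0.14).

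The promoters of Cxcl2 and Nfkbia are shown because one codes for a signal and the other for its inhibitor, and both carry a kB element, the sequence that NF-kB binds, searched on both strands as GGG, any 2 bases, then TTTCC. Each run is the 250 bases before the RefSeq start (GRCm38.p6), 5′ to 3′ on the gene's strand, with matches in capitals. Cxcl2 lies at chr5:90903649-90903898 on the plus strand and Nfkbia at chr12:55492648-55492897 on the minus strand.
Cxcl2: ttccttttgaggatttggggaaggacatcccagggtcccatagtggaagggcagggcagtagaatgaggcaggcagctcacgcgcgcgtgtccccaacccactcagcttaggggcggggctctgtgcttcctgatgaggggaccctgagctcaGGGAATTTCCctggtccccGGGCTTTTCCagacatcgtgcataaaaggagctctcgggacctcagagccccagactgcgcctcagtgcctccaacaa
Nfkbia: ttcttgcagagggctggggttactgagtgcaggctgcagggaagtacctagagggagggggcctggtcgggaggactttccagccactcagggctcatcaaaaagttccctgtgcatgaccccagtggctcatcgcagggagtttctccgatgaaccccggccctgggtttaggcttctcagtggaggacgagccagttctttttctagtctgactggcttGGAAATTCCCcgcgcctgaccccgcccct
The Cxcl2 matches begin 97 and 78 bases before the start and the Nfkbia match 29 bases before it. Windows of 300 bases, from 250 before to 50 after the start, were available for 8692 of the 11074 tested genes, and 1.79% of them held this element. Among genes that rose at least 16-fold the share was 4.85% of 165 windows (8 windows), and among the NF-kB inhibitors and cytokine brakes 13.6% of 22 (3 windows). The element was in 2 of 8 windows of CXC and other chemokines. It was in 0 of 6 windows of TNF superfamily ligands, 0 of 6 of the interleukin 1 and 18 list and 0 of 11 of the nitric oxide list. A match is a string of letters in one window and shows neither binding nor its absence.

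Immediate early factors, which link receptor signals to transcription within minutes, mostly rose. Of 24 tested 16 rose and 2 fell (6 without scramble 1, 5 with upper quartile scaling). Atf3 (1.93), Fosl1 (3.33), Maff (3.52) and Myc (2.83) rose, Batf2 had no count in the controls and was at least 185-fold higher, and Fos rose by 0.57. Egr3 fell from 4.29 to 0.300 CPM on average and Nr4a1 fell by 1.64 log2. The letters TGANTCA, which AP-1 binds, occurred in 20.6% of the windows of genes at least 16-fold higher and in 4.68% of all windows.

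Interferon target genes rose almost without exception. Of 59 antiviral effectors tested (61 listed) 55 rose and 2 fell, with a median of 4.03 log2, and their summed counts went from 0.182% to 0.192% of a library to 1.46% to 1.53%. All 18 tested interferon inducible GTPases (22 listed) rose, with a median of 5.72 log2. Over all genes tested 27.6% rose. As with the chemokines, a member nearly silent in the controls is tested only because it was high in fAb. Of the 18 GTPases 4 had at most 3 counts over the controls, as had 4 of the 20 sensor genes tested below. Several of these genes belong to families with near-identical copies (Ifi200, Ifit, Gbp, Slfn, Oas, H2), so counts of single members may share reads. Ifit3, whose product binds viral RNA complexes, read 0.689, 1.36, 2.02 and 1.91 CPM in scramble and 956, 1011, 1037 and 986 CPM in fAb (9.41 ± 0.28), with the groups far apart. Gbp2, a GTPase that attacks the membranes of intracellular pathogens, read 0.424, 0.431, 0.523 and 0.636 CPM and 658, 696, 760.4 and 737 CPM (10.46 ± 0.15, adjusted p = 2.70e-10, edgeR). The ubiquitin-like modifier Isg15 (8.67), viperin, the product of Rsad2 (9.58), and Mx1 (9.34) rose as well.

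Oas1a (3.98), Oas2 (5.28) and Oas3 (3.61), which encode sensors of double-stranded RNA, also rose. Against the direction of the list, the RNA-editing gene Apobec1 fell by 0.74 log2, and Ifitm2 (-0.10, or 0.13 without scramble 3) and Ifi27 (0.26, adjusted p = 0.00342 without scramble 3, edgeR) did not pass. Of 20 interferon and nucleic acid sensor genes tested 18 rose, including the RNA helicases Ddx58 (4.85) and Ifih1 (4.31), and 1 fell, Tmem173, which encodes the adaptor STING (-0.59). Mavs, the adaptor of the RNA helicases, was at -0.02 (adjusted p = 0.831, edgeR). Zbp1, a sensor of left-handed nucleic acid, had no count in any control and 12.6, 12.9, 15.1 and 12.4 CPM in the fAb libraries, at least 283-fold higher. Of 18 interferon transcription factors and kinases 12 rose and 4 fell (2 without fAb 1 or with the Timm23 split as a term): Irf7 (7.64), Stat2 (3.42) and Irf9 (2.46) rose, Stat5a (-0.47), Stat5b (-0.49), Irf2 (-0.29) and Irf8 (-0.45) fell. Of the last pair, Irf2 had adjusted p = 0.0761 to 0.0783 in edgeR without fAb 1 or 3 and Irf8 had adjusted p = 0.054 in edgeR without fAb 1.

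The interferon-stimulated response element was searched on both strands as GAAA, any 2 bases, then GAAA. It is shown in the promoters of Ifit3 and Gbp2, one from the antiviral effectors and one from the interferon inducible GTPases. Ifit3 lies at chr19:34583279-34583528 and Gbp2 at chr3:142620413-142620662, both on the plus strand, printed as above with matches in capitals.
Ifit3: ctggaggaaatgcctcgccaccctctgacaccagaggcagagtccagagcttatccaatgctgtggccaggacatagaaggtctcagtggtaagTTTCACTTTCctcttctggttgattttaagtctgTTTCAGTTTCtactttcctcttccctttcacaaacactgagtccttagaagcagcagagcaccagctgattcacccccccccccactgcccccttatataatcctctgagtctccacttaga
Gbp2: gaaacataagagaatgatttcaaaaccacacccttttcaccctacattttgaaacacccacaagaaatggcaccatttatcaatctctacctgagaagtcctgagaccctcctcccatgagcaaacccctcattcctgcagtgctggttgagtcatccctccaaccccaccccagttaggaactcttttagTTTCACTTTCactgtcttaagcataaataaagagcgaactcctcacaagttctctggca
The Ifit3 matches begin 156 and 122 bases before the start and the Gbp2 match 59 bases before it. The element occurred in 11 of 12 GTPase windows (91.7%), in 66.7% of 15 sensor windows and in 43.5% of 46 antiviral windows, against 3.34% of all windows and 2.31% of the windows of genes that fell. Of 165 windows of genes at least 16-fold higher 26.1% held it.

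Genes of class I antigen presentation rose. All 25 tested genes of MHC class I presentation and the immunoproteasome were higher in fAb without overlap between the groups, with a median of 1.98 log2. Over all genes tested 27.6% were higher, and 28.9% lay above the controls without overlap. The peptide transporter Tap1 (3.22), the class I activator Nlrc5 (2.41) and the immunoproteasome subunit Psmb8 (1.94) rose, as did the classical molecule H2-K1 (0.79) and its partner B2m (1.09). The constitutive proteasome moved less: 18 of 31 subunits rose (31 without scramble 3) and none fell, with a median of 0.51. Cd274, the inhibitory ligand PD-L1, rose by 5.34 and the activating ligands Cd80 and Cd86 by 0.89 and 0.68. The class II genes H2-Aa, H2-Ab1, H2-Eb1 and Ciita had too few counts to test. The class II invariant chain Cd74 did not pass (0.43, adjusted p = 0.122, edgeR), though its adjusted p in edgeR was 0.0287 with the replicate block and 4.11e-04 without scramble 3.

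Complement genes and uptake receptors changed in both directions. The list of 13 tested complement genes had 6 higher and 4 lower and a median of 0.05 log2, or -0.13 with upper quartile scaling. C3, the central component, read 29.0, 26.4, 25.6 and 34.7 CPM in the controls and 779.7, 822, 873 and 836 CPM in fAb (4.84 ± 0.13). C1qb, a chain of the recognition molecule C1q, fell from 4.34, 3.76, 8.37 and 3.56 CPM to 0.916, 0.889, 1.16 and 0.761 CPM (-2.41 ± 0.33), with scramble 3 highest among the controls. C1qa was 26.1 times lower (95% counting interval 8.62 to 129, 3 fAb counts), and C1qc fell by 3.26 log2.

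The uptake receptors that bind amyloid or dying cells numbered 34, with 16 higher and 13 lower. Fc receptors, which take up antibody-coated particles, changed in opposite directions: Fcgr1 went from 32.1, 29.6, 37.9 and 28.8 CPM to 310.4, 339, 347 and 329 CPM (3.37 ± 0.11) and Fcgr3 from 107, 98.6, 152 and 108 CPM to 16.2, 17.6, 18.2 and 18.4 CPM (-2.72 ± 0.15). The inhibitory Fcgr2b rose by 3.05. Clec4e, a C-type lectin that senses dead cells and mycobacterial lipid, read 61.8, 54.1, 50.8 and 61.4 CPM and 1784, 1810, 1619 and 1605 CPM (4.90 ± 0.12), whereas Clec7a, the beta-glucan receptor, fell by 1.65 log2. Trem2, a lipid and amyloid receptor in which variants raise the risk of Alzheimer's disease, fell from 219, 247, 413 and 240.4 CPM to 68.0, 58.5, 68.9 and 68.5 CPM (-2.08 ± 0.20), and its adaptor Tyrobp by 0.62 log2, while Trem1, which uses the same adaptor, rose by 2.64. Cd93, a receptor for the removal of dying cells, had 654, 585, 371 and 664 CPM in scramble, lowest in library 3, and 76.5, 74.6, 80.5 and 86.2 CPM in fAb (-2.84 ± 0.19). The scavenger receptor Msr1 rose by 2.41, the bridging molecule Gas6 fell by 2.58 log2 and its receptor Mertk by 2.15 log2.

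**Figure D3:**
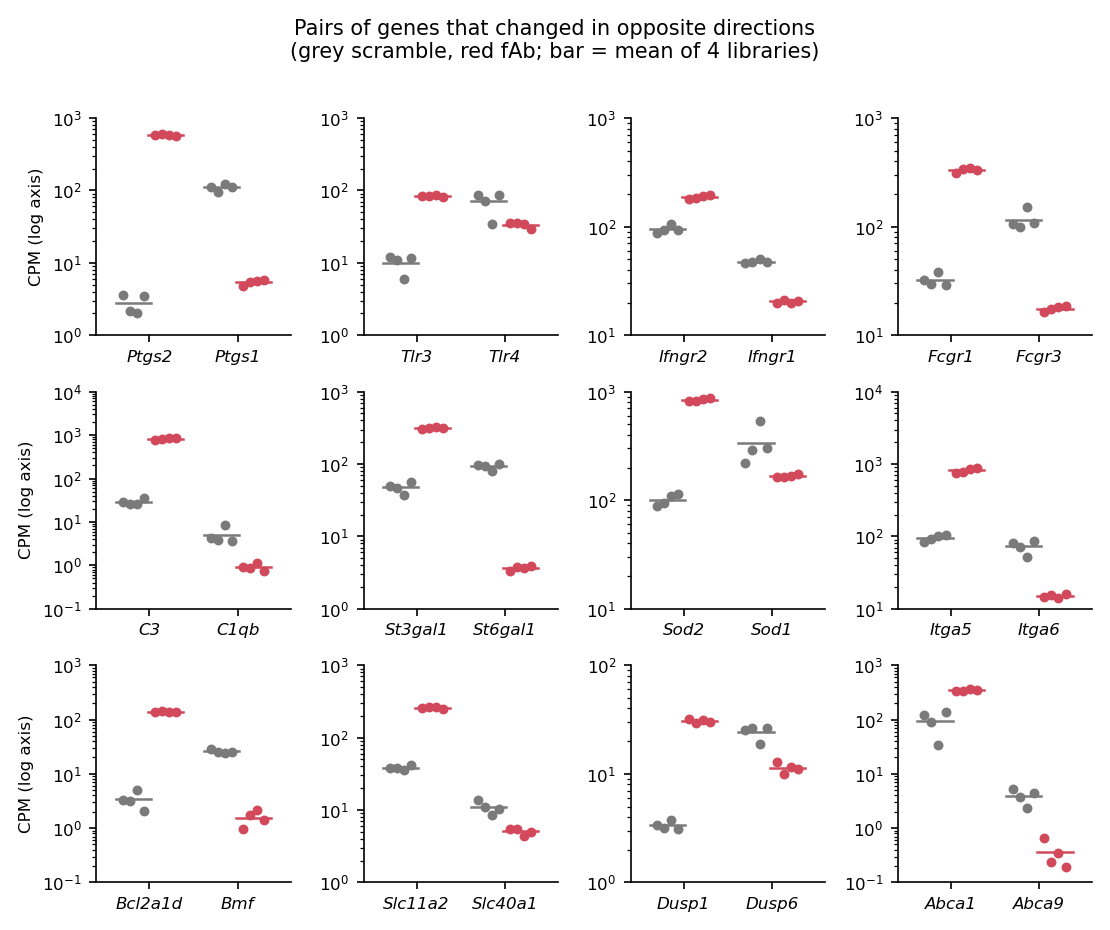
TMM-scaled CPM by library (points, log axes) for 12 pairs of genes of one family or pathway in which one rose and the other fell, chosen after their values were seen. Scramble libraries are grey and fAb libraries red. Ptgs2 lay at 2.02 to 3.55 CPM in scramble and 569 to 601 CPM in fAb while Ptgs1 lay at 95 to 125 CPM and 4.82 to 5.77 CPM, and only for Tlr4 do the groups overlap.

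Genes that define resting microglia fell in most cases tested. Of 27 homeostatic genes listed, 6 had too few counts to test, among them Tmem119, Sall1 and Siglech. Of 21 tested homeostatic genes 14 were lower and 3 higher (5 higher without scramble 3), with a median of -1.05 log2, against 28.8% lower over all genes. The ADP receptor P2ry12, by which microglia sense damaged cells, read 7.95, 5.42, 3.89 and 6.68 CPM in scramble and 0.672, 0.534, 0.888 and 1.08 CPM in fAb (-2.92 ± 0.29). The lysophosphatidylserine receptor Gpr34 fell from 5.19, 5.67, 3.36 and 4.83 CPM to 0.0611, 0.296, 0.137 and 0.127 CPM (-4.86 ± 0.35), and the ectonucleotidase Entpd1, which degrades ATP and ADP, from 66.0, 55.5, 64.9 and 63.7 CPM to 6.29, 5.63, 5.94 and 5.39 CPM (-3.43 ± 0.10). Gpr84, a receptor for medium-chain fatty acids, went the other way (8.27 to 200.3 CPM on average, 4.61 log2), and Cx3cr1 rose by 0.59. Genes associated with disease-associated microglia changed in both directions but rose more often than they fell, with 17 of 34 higher and 9 lower. Over all genes tested 27.6% were higher and 28.8% lower. Spp1 (1.80), Lpl (1.32) and Axl (3.24) rose, and Trem2, Clec7a and Cadm1 (-1.14) fell.

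Transcription factors of the lineage changed in both directions, 30.6% higher and 38.9% lower, against 27.6% and 28.8% of all genes tested. Of 36 tested 11 rose and 14 fell, and Spi1, which encodes the master factor PU.1, was at 0.01 (adjusted p = 0.984, edgeR, with both signs among the alternatives and 0.63, adjusted p = 0.0438, over all 12 libraries with the Timm23 split as a term). Maf, a leucine zipper factor, read 1.06, 0.924, 1.27 and 1.34 CPM in scramble and 22.4, 26.0, 29.5 and 24.5 CPM in fAb, with no overlap (4.48 ± 0.16). Cebpa, needed to make myeloid cells, fell from 53, 84.0, 118 and 77.9 CPM to 15.0, 14.5, 15.9 and 15.2 CPM (-2.46 ± 0.22), and Id3, an inhibitor of helix-loop-helix factors, from 34.4 to 1.85 CPM on average. Ets2 (2.99) and Bhlhe40 (1.07) rose and Mef2c fell by 1.26 log2. In the TGF-beta pathway, which keeps microglia in the resting state, Smad3 (-1.19) and the repressor Ski (-1.67) fell and the inhibitor Smad7 (0.91) rose.

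Genes of small-molecule receptors and of glycan enzymes changed in both directions. Of 29 purinergic, lipid and orphan receptors 13 rose and 14 fell, with a median of 0.18 log2 that turned to -0.01 under upper quartile scaling. Adora2a, the adenosine receptor that raises cyclic AMP, went from 1 count over the controls to 9.34, 7.88, 12.8 and 11.3 CPM, 658 times higher (118 to 26000), and the related Adora2b rose by 4.62. The platelet-activating factor receptor Ptafr (2.38) rose, while Gpr183 (-2.48), a receptor for oxysterols, and P2rx7 (-1.13), the ATP channel that triggers the inflammasome, fell. St6gal1, which adds sialic acid in the alpha-2,6 linkage, fell from 97.6, 94.9, 79.2 and 99.6 CPM to 3.36, 3.79, 3.69 and 3.87 CPM (-4.66 ± 0.12), and St3gal1, which adds it in the alpha-2,3 linkage, rose from 50.2, 46.0, 37.4 and 56.7 CPM to 304, 314, 320.1 and 317 CPM (2.72 ± 0.13). In that glycan list 17 of 35 genes rose and 10 fell (13 and 14 with upper quartile scaling, 11 and 6 with the Timm23 split as a term).

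Metabolic enzymes tied to inflammation changed in both directions. Acod1, the enzyme that makes itaconate from a citric acid cycle intermediate, read 5.93, 6.47, 6.80 and 9.73 CPM in scramble and 5742, 5951, 6257 and 6172 CPM in fAb (9.70 ± 0.21, adjusted p = 1.78e-09, edgeR). The fAb libraries differed from each other by less than the distance between any of them and a control. Nitric oxide is made from arginine, and the arginine transporter Slc7a2 (19.0 to 730.4 CPM on average, 5.26 log2) and the recycling enzyme Ass1 (3.38) rose. Gch1, which starts synthesis of the synthase's cofactor, rose by 3.83, while Pts (-1.06) and Spr (-0.91), the later steps of that cofactor pathway, fell, Spr with adjusted p = 0.0527 to 0.0528 in edgeR without fAb 1 or 2. The whole list had 11 of 17 genes higher and 4 lower (2 lower without fAb 1 or fAb 2, 1 with the Timm23 split as a term).

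In the prostaglandin and leukotriene pathway 5 of 14 genes rose and 5 fell (35.7% each), not far from the 27.6% and 28.8% of all genes tested. The inducible cyclooxygenase Ptgs2 read 3.55, 2.16, 2.02 and 3.50 CPM and 586, 601, 579 and 569 CPM (7.68 ± 0.20), and the constitutive Ptgs1 110.2, 95, 125 and 111 CPM and 4.82, 5.51, 5.53 and 5.77 CPM (-4.35 ± 0.12), each without overlap. Ptges, which converts their product to prostaglandin E2, rose by 4.996. On the leukotriene side Alox5ap (-1.55), Lta4h (-0.56) and Ltc4s (-4.34) all fell. Of 21 matrix proteases and inhibitors 16 rose and 3 fell (5 without scramble 3): the collagenase Mmp13 (8.94) and the urokinase receptor Plaur (3.17) rose and the inhibitor Timp2 fell from 24.8 to 2.48 CPM on average.

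Glycolysis genes mostly rose and those of the citric acid cycle and respiratory chain more often fell than rose. Of 40 glycolysis, hypoxia and pentose phosphate genes 24 rose and 5 fell (3 without fAb 2 or fAb 4 or with the Timm23 split as a term, 11 with upper quartile scaling), with a median of 0.63 log2. The regulator Pfkfb3 (17.9 to 105.1 CPM on average, 2.55 log2), the glucose transporter Slc2a1 (2.11) and hexokinase Hk2 (1.28) rose, and the abundant enzymes Gapdh (0.34) and Pkm (0.21) did not pass with all libraries but did without scramble 3 (adjusted p = 0.00181 and 0.00194, edgeR). Of 37 citric acid cycle and fuel genes 6 rose (3 without scramble 2) and 13 fell, counts that were 2 and 24 with upper quartile scaling and 1 and 7 with the Timm23 split as a term. Among those that fell was the fumarase gene Fh1 (-0.78). Nuclear genes of the respiratory chain had 18 of 49 lower and none higher (3 without scramble 3), with a median of -0.44 log2, and this count moved with the settings: it was 36 with upper quartile scaling, 30 without scramble 1, 7, 9 and 11 without fAb 1, 2 and 4, and, with the Timm23 split as a term, 0 on the 8 libraries and 4 on all 12. Of 15 mitochondrially encoded transcripts 10 fell (5 with the split), such as mt-Cytb (-0.90), and both ribosomal RNAs rose, mt-Rnr1 by 0.62 and mt-Rnr2 by 0.45.

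Antioxidant genes rose in part. Of 38 genes of the NRF2, glutathione and thioredoxin list 21 were higher and 3 lower (6 without scramble 1, 8 with upper quartile scaling, 0 with the Timm23 split as a term). Slc7a11, the cystine importer that feeds glutathione synthesis, read 5.88, 3.94, 2.92 and 5.92 CPM in scramble and 323, 332, 306 and 332 CPM in fAb (6.10 ± 0.22), and heme oxygenase Hmox1 rose by 3.36 and thioredoxin reductase Txnrd1 by 1.98. The superoxide dismutases parted: the mitochondrial Sod2 went from 88.9, 93.9, 109 and 114 CPM to 812, 815, 858 and 875 CPM (3.05 ± 0.11) and the cytosolic Sod1 from 222, 288, 535 and 301 CPM to 165, 165, 168 and 175 CPM (-0.998 ± 0.24). Sod1 was highest in scramble 3, as were the glutathione peroxidases Gpx1 (-1.001) and Gpx4 (-0.99), which also fell.

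Iron transporters changed in opposite directions. The divalent metal importer Slc11a2 went from 38.7, 38.1, 35.9 and 41.9 CPM to 259.5, 264, 263 and 252 CPM (2.75 ± 0.08), and ferroportin, the exporter encoded by Slc40a1, from 13.7, 11.2, 8.45 and 10.4 CPM to 5.50, 5.45, 4.37 and 4.94 CPM (-1.11 ± 0.17). The transferrin receptor Tfrc rose by 1.22, and Lcn2, which binds bacterial iron carriers, was 4660 times higher (1290 to 38500, 2 control counts). The ferritin gene Fth1 (0.48) did not pass, but had an adjusted p of 0.0475 with the replicate block and 4.54e-04 without scramble 3 in edgeR. With the Timm23 split as a term it was at 1.17 (adjusted p = 0.0384, edgeR), or 0.80 over all 12 libraries (adjusted p = 0.0289, edgeR). In all 9 of 21 genes of the list rose and 5 fell.

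Genes of stress pathways of protein synthesis and folding mostly rose. Of 39 genes of the integrated stress response and amino acid supply 28 rose and 3 fell (1 with the Timm23 split as a term), with a median of 0.79 log2. Of 39 genes of endoplasmic reticulum folding and degradation 31 rose and 1 fell (3 with upper quartile scaling, 0 with the split), with a median of 0.75. Atf4, the factor that drives the former list, went from 85.6, 83.8, 77.2 and 64.1 CPM to 358, 357, 353 and 336 CPM (2.18 ± 0.11). Its targets Chac1 (5.17), Trib3 (3.10) and Cth (3.29) rose, whereas Ddit4 (-0.73) and Pck2 (-0.96) fell. The chaperone Hspa5 read 617, 655, 736 and 633 CPM and 2199, 2292, 2159 and 2149 CPM (1.74 ± 0.09) and Hsp90b1 677, 628, 646 and 606 CPM and 1606, 1664, 1454 and 1450 CPM (1.27 ± 0.09), with a tight spread in each group. Of 31 heat shock and chaperonin genes 23 rose, led by Hspa1a (3.46), and the heat shock factor Hsf1 fell by 0.38 log2, with adjusted p = 0.0509 to 0.0636 in edgeR without fAb 1 or 3. In the endoplasmic reticulum list the gene that fell was Sil1 (-0.73), with adjusted p = 0.0558 in edgeR without fAb 1.

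The elements bound by ATF4 (TTGCATCA) and by the factors of the unfolded protein response (CCAAT, any 9 bases, then CCACG, so that it contains a CCAAT box) are shown in the promoters of Slc7a11, the strongest riser of its list, and Hsp90b1. Slc7a11 lies at chr3:50443614-50443863 and Hsp90b1 at chr10:86705445-86705694, both on the minus strand, with matches on either strand in capitals.
Slc7a11: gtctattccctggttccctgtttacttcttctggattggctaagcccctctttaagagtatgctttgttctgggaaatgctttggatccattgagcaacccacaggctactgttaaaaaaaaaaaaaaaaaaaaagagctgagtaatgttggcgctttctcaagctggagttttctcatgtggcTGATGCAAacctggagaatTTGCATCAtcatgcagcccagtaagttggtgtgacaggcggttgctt
Hsp90b1: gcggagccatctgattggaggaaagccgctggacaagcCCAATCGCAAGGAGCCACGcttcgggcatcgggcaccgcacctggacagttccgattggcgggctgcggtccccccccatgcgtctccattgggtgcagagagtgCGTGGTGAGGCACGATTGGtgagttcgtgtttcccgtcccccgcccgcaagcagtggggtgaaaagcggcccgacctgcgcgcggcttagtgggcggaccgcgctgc
The Slc7a11 matches begin 66 and 47 bases before the start, and those of Hsp90b1 begin 212 and 107 bases before it. The ATF4 letters occurred in 29.0% of 31 windows of the stress response list and in 0.587% of all windows. The other element occurred in 25.8% of 31 windows of the endoplasmic reticulum list and in 0.127% of all. The heat shock element (GAA, TTC and GAA with any 2 bases between each) was in 4 of 25 heat shock windows and in 0.368% of all.

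**Figure D4:**
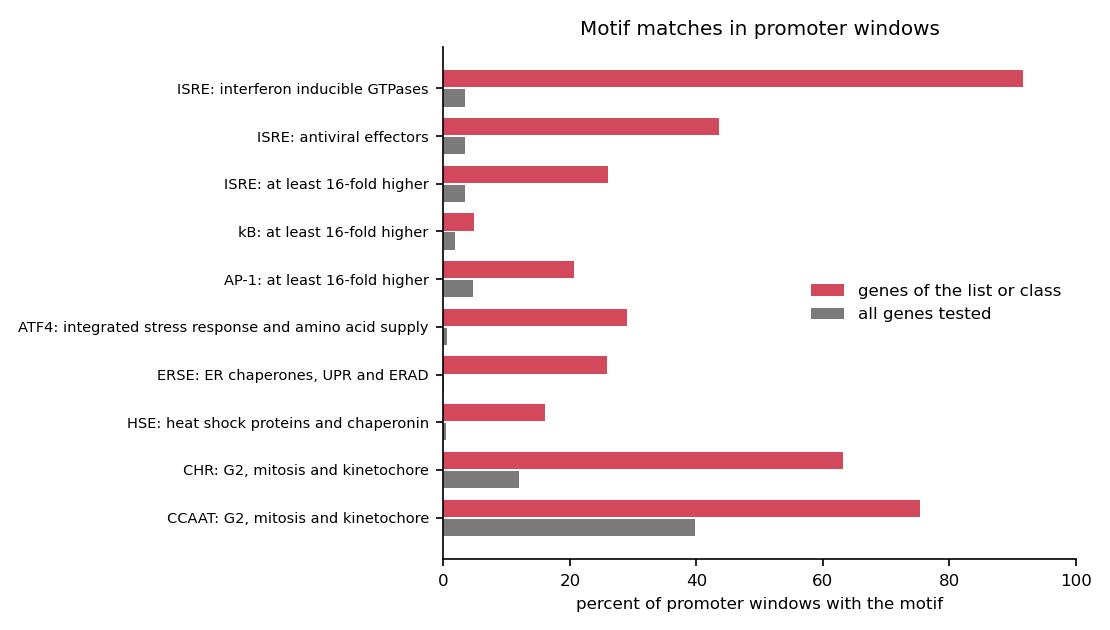
Percent of 300-base promoter windows that hold a motif on either strand, for the genes of a list or class (red) and for all 8692 tested genes with a window (grey). The interferon element reaches 91.7% in the interferon inducible GTPases against 3.34% of all windows, and the CHR element 63.2% in genes of G2, mitosis and the kinetochore against 12.0%.

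More cathepsins, lysosomal hydrolases and autophagy genes fell than rose. In the list of the lysosomal membrane and proton pump 33.3% rose and 23.1% fell, near the 27.6% and 28.8% of all genes tested. Of 43 cathepsins and lysosomal hydrolases 20 fell (13 with the Timm23 split as a term) and 6 rose, with a median of -0.25 log2. The heparan sulfatase gene Sgsh fell from 35.3, 38.4, 48.9 and 44.1 CPM to 2.57, 2.91, 3.62 and 3.30 CPM (-3.75 ± 0.16) and the protease gene Lgmn from 419, 425, 582 and 442 CPM to 124, 131, 137 and 136 CPM (-1.82 ± 0.12), while Ctsc (1.22), Ctsz (1.10) and the lipase Lipa (1.19) rose. Tfeb, the factor that drives lysosomal genes, fell by 1.97 log2, and its relative Tfec rose by 1.67. Of 39 genes of the lysosomal membrane and proton pump 13 rose (22 without scramble 3) and 9 fell (9 and 10 with upper quartile scaling, 9 and 5 with the Timm23 split as a term), with a median of 0.25 log2. In the autophagy list 17 of 42 fell and 9 rose (14 without scramble 3): the initiating kinase Ulk1 (-1.68) and the receptor Calcoco1 (-2.24) fell, and the receptors Sqstm1 (1.33) and Optn (2.02) rose.

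Sterol synthesis genes mostly rose. Lipid efflux genes moved both ways, 30.6% higher and 30.6% lower, near the 27.6% and 28.8% of all genes tested. Of 27 sterol synthesis and uptake genes 17 rose and 3 fell (5 with upper quartile scaling, 0 with the Timm23 split as a term). Of 36 genes of lipid efflux and sterol sensing 11 rose (7 with the split) and 11 fell, with a median of 0.01 log2 that was -0.18 with upper quartile scaling. Abca1, which exports cholesterol, read 119.7, 90.1, 34.2 and 136 CPM in scramble, lowest in library 3, and 333, 342, 366 and 346 CPM in fAb (1.87 ± 0.35). Its relative Abca9 fell from 5.30, 3.70, 2.32 and 4.52 CPM to 0.672, 0.237, 0.341 and 0.190 CPM (-3.44 ± 0.40), the sterol hydroxylase Cyp27a1 fell by 2.80 log2 and Apoe, which is barely expressed in this line, from 2.63 to 0.802 CPM on average.

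Division genes fell in large number. Of 68 genes of G2, mitosis and the kinetochore 63 fell and none rose (1 rose without scramble 3), with a median of -1.21 log2, and their share of counts went from 0.549% to 0.802% to 0.267% to 0.293%. Of 49 genes of S phase 30 fell and 4 rose, with a median of -0.51. The mitotic kinase Cdk1 read 131, 116, 137 and 107 CPM in scramble and 67.4, 71.1, 59.5 and 57.4 CPM in fAb (-0.94 ± 0.11), and Cdc20, an activator of the complex that ends mitosis, 99.96, 111, 139.8 and 118 CPM and 38, 39.6, 39.4 and 39.3 CPM (-1.59 ± 0.11). The proliferation marker Mki67 fell from 887, 801, 474 and 912 CPM to 318, 322, 316 and 316 CPM (-1.27 ± 0.19), with scramble 3 the lowest control and still above the fAb libraries. The 4 S phase genes that rose were Orc1 (0.85), Cdc6 (0.80), Mcm10 (0.54) and Rrm2 (0.27), the first pair of which license replication origins in G1. Rrm2 had adjusted p = 0.077 to 0.122 in edgeR without fAb 1 or 2 or without scramble 2 or 4. Homologous recombination and Fanconi genes fell in 15 of 32 cases (8 without fAb 4, 24 without scramble 3), such as Fanci (-1.41).

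The CHR element (TTTGAA), bound by the complex that times mitotic genes, and the CCAAT box are shown in Cdk1 at chr10:69352913-69353162 and Cdc20 at chr4:118437344-118437593, both on the minus strand. Capitals mark either element on either strand.
Cdk1: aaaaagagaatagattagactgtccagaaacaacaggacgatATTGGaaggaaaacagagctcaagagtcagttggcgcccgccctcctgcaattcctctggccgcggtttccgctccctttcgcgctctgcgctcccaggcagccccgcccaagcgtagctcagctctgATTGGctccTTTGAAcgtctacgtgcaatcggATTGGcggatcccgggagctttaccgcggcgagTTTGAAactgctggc
Cdc20: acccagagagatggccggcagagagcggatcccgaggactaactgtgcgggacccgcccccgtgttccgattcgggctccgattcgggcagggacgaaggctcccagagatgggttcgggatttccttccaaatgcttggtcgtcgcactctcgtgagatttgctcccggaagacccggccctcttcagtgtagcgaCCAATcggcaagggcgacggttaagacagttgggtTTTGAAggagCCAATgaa
In Cdk1 the CHR matches begin 71 and 15 bases before the start, and in Cdc20 the match begins 18 bases before it. CHR letters occurred in 63.2% of 57 windows of the mitotic list, in 12.2% of 41 S phase windows and in 12.0% of all. They also occurred in 22.4% of the 165 windows of genes at least 16-fold higher. Among lists that rose they were in 41.7% of 12 GTPase windows and 28.3% of 46 antiviral windows, but in 6.45% of 31 endoplasmic reticulum windows. The CCAAT box occurred in 75.4%, 61.0% and 39.7%. It was as frequent in some lists that mostly rose, at 85.0% of 20 sterol synthesis windows and 80.6% of 31 endoplasmic reticulum windows. In the antiviral list it was in 34.8%.

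Genes associated with quiescence mostly fell. Of 31 quiescence associated genes 23 fell and 6 rose (3 with the Timm23 split as a term), with a median of -1.27 log2, the lowest of the lists with more than 3 tested genes. Pik3ip1, an inhibitor of PI3 kinase, fell from 13.9, 15.9, 16.1 and 14.7 CPM to 0.366, 0.771, 0.410 and 0.507 CPM (-4.85 ± 0.20), Sesn1, an inhibitor of mTORC1, from 143, 137, 118 and 122 CPM to 12.1, 11.9, 10.5 and 9.63 CPM (-3.56 ± 0.12), and Pdcd4 (-3.44) and Foxo3 (-1.40) fell too. Among G1 cyclins, inhibitors and p53 targets 13 of 36 rose and 13 fell (8 with the split). These shares, 36.1% each, were not far from the 27.6% and 28.8% of all genes tested. The cyclin gene Ccnd1 (209 to 421 CPM on average, 1.01 log2), the kinase gene Plk2 (3.48) and Mdm2 (1.91) rose and Trp53inp1 (-3.57) and Phlda3 (-2.25) fell.

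The BCL2 family holds both survival and death genes. Bcl2a1d, a pro-survival member with near-identical copies, read 3.34, 3.20, 4.93 and 2.10 CPM in scramble and 136, 142, 140 and 137 CPM in fAb (5.36 ± 0.21). Bmf, a pro-death member, read 28.2, 25.4, 24.4 and 25.6 CPM and 0.977, 1.72, 2.12 and 1.39 CPM (-4.06 ± 0.20), and Bbc3, which encodes PUMA, fell from 21.4 to 2.41 CPM on average. The caspase-8 inhibitor Cflar (3.01) and Bcl2l1 (1.84) rose. Casp4 (3.61), Mlkl (3.04), Nlrp3 (2.29) and Gsdmd (1.33) rose too, and the adaptor Pycard fell by 0.997 log2. In all 17 of 35 tested genes rose and 7 fell (4 with the Timm23 split as a term).

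**Figure D5:**
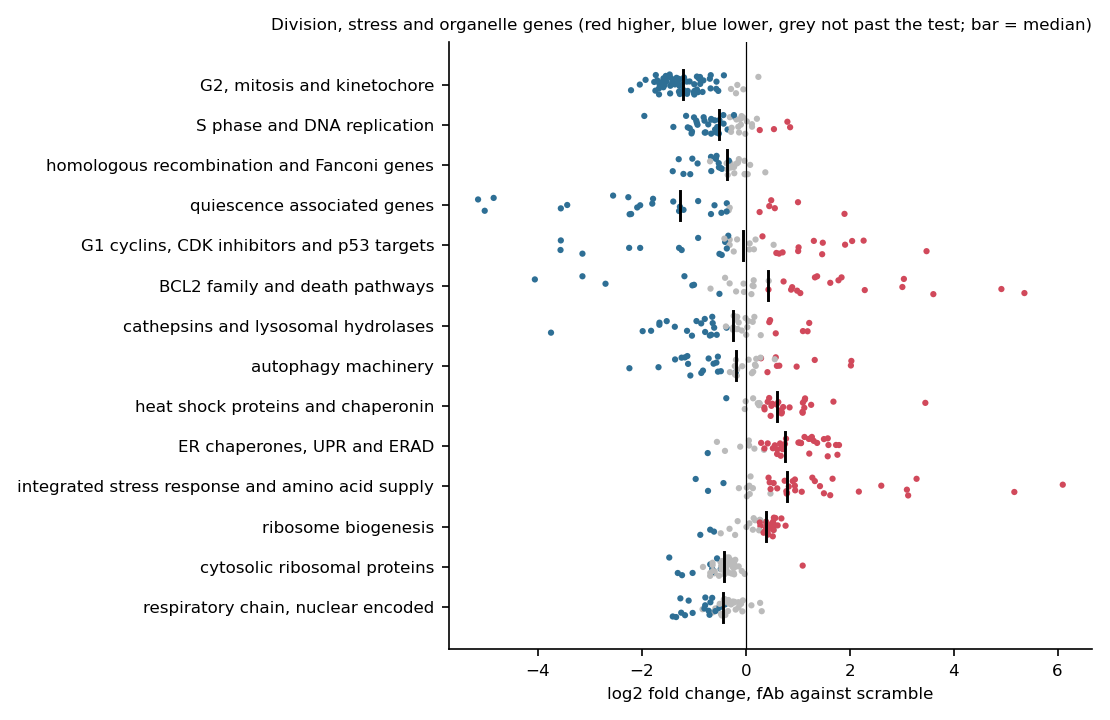
Log2 fold change of fAb over scramble for each tested member (points) of 14 lists on division, stress and organelles, with the list's median as a black bar. Red points are higher and blue points lower at an adjusted p under 0.05, and grey points did not pass. The G2 and mitosis members lie almost wholly to the left, with a median of -1.21, and the integrated stress response members mostly to the right, with a median of 0.79.

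Adhesion genes changed in both directions. The fibronectin receptor chain Itga5 went from 83.6, 91.2, 103 and 105.1 CPM to 763, 774, 861 and 877 CPM (3.10 ± 0.11) and the laminin receptor chain Itga6 from 80.4, 72.4, 52.3 and 86.2 CPM to 14.4, 15.6, 14.2 and 16.1 CPM (-2.27 ± 0.16). Itgal (4.02), Icam1 (2.27) and Cd44 (2.11) rose, Itgb5 fell by 2.35 log2, and 11 of 24 tested genes rose and 7 fell. Of 46 chromatin modifiers 10 rose (21.7%) and 11 fell (23.9%), below the 27.6% and 28.8% of all genes tested. Their median was 0.10 log2, or -0.09 with upper quartile scaling. The methylcytosine oxidase Tet2 (25 to 88.1 CPM on average, 1.81 log2) rose and the histone deacetylases Hdac5 (-2.07) and Hdac4 (-1.24) fell.

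Counts of ribosome genes moved with the settings. Ribosome biogenesis factors rose in 28 of 45 cases (14 with upper quartile scaling), with a median of 0.39 log2, while the transcription factor of ribosomal DNA, Ubtf, fell by 0.88 log2. Of 51 cytosolic ribosomal proteins 9 fell and 1, Rpl10, rose (1.10), with adjusted p = 0.0674 to 0.0889 in edgeR without fAb 1, 2, 3 or 4 or without scramble 3 or 4. The count of falls was 16 with the replicate block, 21 without scramble 1, 4 without scramble 4, 2 to 3 without any one fAb library, 34 with upper quartile scaling and, with the Timm23 split as a term, 0 on the 8 libraries and 2 on all 12. Their summed share of the unscaled counts was 5.15% to 8.73% in scramble, highest in library 3, and 3.79% to 4.18% in fAb, without overlap. That gap depends on the scaling: the mean shares were 6.26% and 3.99%, but 5.83% and 4.37% over TMM-scaled library sizes. Gene by gene in TMM-scaled CPM, the groups did not overlap for 8 of the 51, against 55.0% of all genes tested.

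Some of the genes that changed at least 4-fold lay side by side. In the deposited coordinates (mm10), 25 runs of at least 3 neighbouring tested genes, 97 genes in all, rose at least 4-fold each, as 5.08% of all genes tested did, and 2 runs, 6 genes in all, fell at least 4-fold. The longest, 10 genes of the Ifi200 family on chromosome 1 from 173468485 to 174031810, rose by 2.10 to 11.63 log2, and 7 Slfn genes on chromosome 11 (82951349 to 83215154) rose by 2.03 to 7.87. The chemokine run Ccl2, Ccl7 and Ccl12 on chromosome 11 and the run Ccl22, Cx3cl1 and Ccl17 on chromosome 8 rose, as did the paired receptors Pilra, Pilrb1 and Pilrb2 on chromosome 5. The falling runs were C1qb, C1qc and C1qa on chromosome 4 (136880129 to 136898803) and Mxd4, Zfyve28 and Gm15513 on chromosome 5. Many of these runs are families that arose by duplication, whose members can share reads.

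The largest changes were ranked among genes past the test with a mean of at least 2 CPM over the 8 libraries and no overlap between the groups, leaving out predicted genes, such as Gm15513. By this rule the 12 largest rises included Gbp5, at 6570 times the control level (1820 to 54300, 2 control counts), Ccl5 (0.519 to 1114 CPM on average, 11.06 log2), Ifi205 (11.63) and Cxcl3, which had no control count and was at least 489-fold higher. Also there, with Il6, Lcn2 and those above, were Ccl12 and Csf3, at least 1040-fold and 1700-fold higher, Nos2, Il1a and Il1b. Cfb, also among them, shares 79.5% of its exons with a same-strand gene. The 12 largest falls by the same rule, which include Gpr34, Pik3ip1 and St6gal1 above, were led by Cxcr4 (53.6 to 0.442 CPM on average, -6.90 log2), the receptor of Cxcl12, and held S1pr1 (-5.15), Ypel3 (-5.03), Abca6 (-5.78), Cmah (-4.94), Sox4 (-5.15), Zfyve28 (-4.52), Cytip (-4.49), an adaptor of adhesion signalling, and Lzts2 (-4.90), a cytoskeletal protein gene. Sox4 shares 54.6% of its exons with an antisense gene.

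The preparations were also compared directly. Between the 4 fAb and 4 oAb libraries 0 of 10878 genes tested (0.0%) differed at an adjusted p under 0.05 in edgeR, 1391 (12.8%) had an unadjusted p under 0.05, and the smallest adjusted p was 0.375. DESeq2 called 4 genes higher and 12 lower in fAb and limma voom called 0. The median absolute difference was 0.09 log2, against 0.49 for fAb against scramble, and 77 genes differed at least 2-fold against 2577. The genes with the smallest p included Zfr (0.12 ± 0.05), Stard4 (0.14 ± 0.06), a cholesterol carrier, and the ADP receptor P2ry13 (0.67 ± 0.26) on the side of fAb, and the class I loading factor Tapbp (-0.30 ± 0.09), Psmb8 (-0.17 ± 0.05) and Psme1 (-0.18 ± 0.07) on the side of oAb. A p that misses the threshold does not show that the preparations act alike.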

How the data were processed

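Poly(A) RNA was sequenced from 4 scramble, 4 fAb and 4 oAb libraries of IMG cells. The authors deposited raw read counts and TPM (length-scaled abundance) for 41325 genes, read here from the deposited tables, and the submitters' processing notes name mm10. The aligner, the annotation and the strand setting of the counting are not stated in the sources used here. The control columns are identical in both deposited tables. IDs matched the GENCODE M21 annotation for 41297 genes.

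Genes were kept by edgeR's expression filter (minimum count 10), scaled by TMM and tested with edgeR 4.0.16 (quasi-likelihood, R 4.3.3) on the 8 libraries of the comparison, with Benjamini-Hochberg adjustment over all genes tested. Of the others, 24533 genes had no count in these libraries and 5718 had too few. CPM are TMM-scaled. Counting intervals are exact at 95%, cover counting error only and take PCR copies as separate. A gene without control counts is given as a bound against 3 counts over the group. DESeq2 1.42.0, limma 3.58.1 (voom), other scalings, filters and designs, and leaving out each library, were run as alternatives. The fitting was tested on simulated data.

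The members and the 60 gene lists were chosen with earlier results of these data known. The naming rule took the 12 largest rises and falls, and in each list the genes with the smallest adjusted p, those against its majority and abundant ones that did not pass. Of 453 genes it picks, 264 are not named, and of 286 named, 97 lie outside it. Both choices were made after the values were seen, and several genes that did not pass and whose sign changed among the alternatives were among those left out. The values of a few genes are not reported here.

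The scramble and fAb libraries share replicate numbers. No label states that these numbers pair the libraries, so the main test used no replicate block. Deviations of same-numbered libraries from their group means correlated at 0.179, 0.13, 0.22 and 0.117, each above the set limit of 0.1. A fit with the replicate number as a block was therefore given among the alternatives. Several differently numbered pairs correlated higher, up to 0.441.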

Additional observations from a re-analysis of the deposited data

Results flagged for a closer look

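In 130 groups of 4 libraries, the highest or lowest library was compared with its nearest neighbour, as a share of the group's range. Chance flags about 1 in 20 such groups, and 10 values lay beyond Dixon's 95% limit. Of these, 7 belonged to scramble 3, the control that stands apart. They were its share of counts at cytosolic ribosomal proteins, 8.73%, and its CPM for C1qb (8.37), Lgmn (582) and Trem2 (413), all above the other controls, for Dusp6 (18.7) and Tlr3 (5.90), both below them, and for Adora2a (0.0747), a single count where the others had 0. Among the fAb libraries, Tlr4 was low in fAb 4 at 29.4 CPM, Trem2 was low in fAb 2 at 58.5 CPM, and Zbp1 was high in fAb 3 at 15.1 CPM. What sets these libraries apart was not tested.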

How the results depend on the processing

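The count of changed genes, 6235, was 5517 to 7598 when any one library was left out (2663 to 3819 higher, 2806 to 3779 lower), and was 6560 with DESeq2 and 6165 with limma voom. With the Timm23 split as a term it was 3844, with 2020 higher and 1824 lower, and the cause was not tested. The same term over all 12 libraries gave 5524, with 2685 higher and 2839 lower. With the replicate block 6292 genes changed, 3139 higher and 3153 lower. Beside the ribosomal proteins, Tnfsf14, Cd74 and Fth1, the block moved the replication-dependent histones that fell from 2 to 1 and the recombination genes that rose from 0 to 1, and among the genes named and the list counts it changed no other call and moved no other count over 1.5 times. Of 270 named genes past the test 243 passed under every alternative, 24 lost the call with the Timm23 split (12 with it over all 12 libraries) and 5 with upper quartile scaling, and none reversed. Of 120 list counts 72 stayed within 1.5 times throughout, 31 moved with the split (13 over all 12 libraries), 19 with upper quartile scaling and 13 without scramble 3.

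The sign changed under some alternatives for 5 named genes that had not passed. Spi1 was 0.63 log2 with the split over all 12 libraries, where it passed (adjusted p = 0.0438, edgeR), -0.18 with upper quartile scaling, -0.02 with all 12 libraries and under the filter at a mean of 2 CPM, and -0.21 (without scramble 1) to 0.31 (without scramble 3) as single libraries were left out, with -0.05, -0.04 and -0.05 without scramble 2, fAb 3 and fAb 4. Rela was -0.07 with upper quartile scaling, Ifitm2 0.24 with the split and 0.13 without scramble 3, Ccl25 -0.25 to 0.01 as single libraries were left out, the last without scramble 3, and Mavs 0.01 without fAb 3 and 0.00 without scramble 1. Over TMM-scaled library sizes, shares of counts were 4.95% in fAb for genes at least 16-fold higher, 0.85% in scramble and 0.144% in fAb for genes at least 4-fold lower, 0.173% and 1.63% for antiviral effectors, and, in fAb, 0.306% for G2 and mitosis and 4.37% for ribosomal proteins.

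Between fAb and oAb DESeq2 called 16 genes and the other alternatives 0. Same-numbered libraries of these groups correlated at 0.289, -0.258, -0.0386 and 0.154, not all above the set limit, and the replicate block called 0. Depth limits genes of a few counts, such as Tnfsf14 and Il10.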

Other observations

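Long noncoding transcripts were measured alongside the coding genes. Of 143 lincRNA genes tested 32 rose and 50 fell, and of 114 antisense genes 25 rose and 40 fell, against 2971 and 3053 of 10632 protein-coding genes. Circadian clock genes, which set daily rhythms of transcription, rose in 8 of 15 cases (5 with upper quartile scaling) and fell in 4, with a median of 0.38 log2. Potassium, chloride and calcium channel genes rose in 14 of 31 cases and fell in 6, with a median of 0.29. Splicing factors rose in 11 of 41 cases (26.8%, against 27.6% of all genes tested) and fell in 5. The rises were 6 without fAb 2, 18 without scramble 3, 3 with upper quartile scaling and 0 with the Timm23 split as a term, and the falls 3 without fAb 4 or without scramble 4, 9 with upper quartile scaling and 2 with the split. Their median was 0.18 log2, or -0.01 with upper quartile scaling.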
